A study of Homo sapiens with 6 samples.

Results

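RNA polymerase I copies the ribosomal DNA repeats into the precursor of the large ribosomal RNAs, and RNA polymerase III makes 5S ribosomal RNA, transfer RNAs and other short noncoding RNAs. Each is recruited by its own factors. UBTF and the SL1 complex bring polymerase I, activated by RRN3, to the ribosomal DNA, whereas TFIIIA, TFIIIC and TFIIIB place polymerase III on its genes and MAF1 holds polymerase III back. The set described here holds 33 of the 23026 genes in the normalized count table, chosen by name for these roles: 10 genes of polymerase I, 20 of polymerase III, 2 subunits shared by both and MAF1.

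The cells were T98G, an established human glioblastoma line, grown with serum and transduced with lentivirus. The 3 shControl libraries came from cells given a control hairpin, and the 3 shDYRK1A libraries from cells given a hairpin against DYRK1A, a dual-specificity protein kinase. All 6 carried the virus and had been selected with puromycin and left to recover without it. The labels name no hairpin sequence or number and do not say whether 1A, 1B and 1C were separate infections, so p-values measure the spread between these libraries, which may be technical.

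Fly cells of the Kc167 line served as a spike-in, added in proportion to the human cells, so that the counts could be scaled to the fly RNA. The libraries held 33708297 to 42154438 human counts. Divided by the spike-in size factor, the total was 45347425 ± 4532023 in shControl and 33733142 ± 2738615 in shDYRK1A (SD, n = 3 each), or 74.4% of the control. The median gene of the 9697 tested had a log2 fold change of -0.40. Scaling by TMM over the human genes, which sets each gene against the others, moved that median to 0.0019. The study reports that each condition had the same number of T98G cells and a fixed number of fly cells. The scaled total is thus by design a value per human cell. The counts cannot show how closely the numbers of cells were kept. DYRK1A itself had spike-in normalized counts of 2227, 2234 and 1895 in the control libraries 1A to 1C, in that order here and below, and 1482, 1056 and 1285 in the knockdown libraries 1A to 1C, and it fell by 0.73 ± 0.15 on the log2 scale (SE; edgeR adjusted p = 5.33e-06). With TMM its log2 fold change was -0.34 ± 0.059 (edgeR adjusted p = 5.91e-04), and 11.5% of the genes tested had a lower TMM value. VIM and CD44 were abundant in every library, while the other 5 glial and glioma genes listed were low, GFAP, SOX2 and S100B with 0 to 4 raw counts, OLIG2 with 43 to 77 and NES with 52 to 85. Of 5 markers of other cells, PTPRC of leukocytes and RBFOX3 of neurons had 0 to 6 raw counts, PECAM1 of endothelium 11 to 20 and MBP of myelin 6 to 20. The epithelial gene EPCAM had 27 to 43 in shControl and 36 to 65 in shDYRK1A. Its CPM did not overlap, at 0.684 to 1.04 and 1.07 to 1.68, and 33.5% of all genes tested were higher in this way. Its spike-in normalized counts overlapped, at 32.9 to 41.9 and 33.4 to 61.4. VIM, NES and OLIG2 were lower without overlap in CPM and with the spike-in, beside 29.3% and 63.6% of all genes tested. CD44 was just higher without overlap in CPM, and its spike-in groups overlapped. The part of these genes in the values below was not tested.

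With spike-in scaling, 23 of the 32 tested genes of the set were lower in shDYRK1A, beside 63.4% of all genes tested, and 1 was higher, beside 1.08% (edgeR's quasi-likelihood test, Benjamini-Hochberg adjusted p under 0.05). The other 8 did not pass. The median log2 fold change of the 32 was -0.38, close to the -0.40 of all genes. TAF1D and POLR1E also passed the study's fold threshold of -0.7, which 14.3% of all genes did. Every shDYRK1A library lay below every shControl library for 21 of the 32, against 63.6% of all genes, and above for 1, against 1.59%. The shares that 23 and 21 make of the 32 were near the background shares.

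With TMM scaling, 4 genes were lower, beside 28.6% of all genes, and 8 were higher, beside 27.3%. The 4 lower genes were TAF1D, POLR1E, POLR1B and GTF3C4, and the 8 higher genes were POLR3GL, BRF1, MAF1, GTF3C6, TAF1C, CRCP, BRF2 and GTF3A. The other 20 passed in neither direction. In CPM, the counts scaled to the library total, the groups did not overlap for 4 genes that were lower, beside 29.3% of all genes, and for 9 that were higher, beside 33.5%. The 9 were the 8 named above and GTF3C5.

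**Figure D1:**
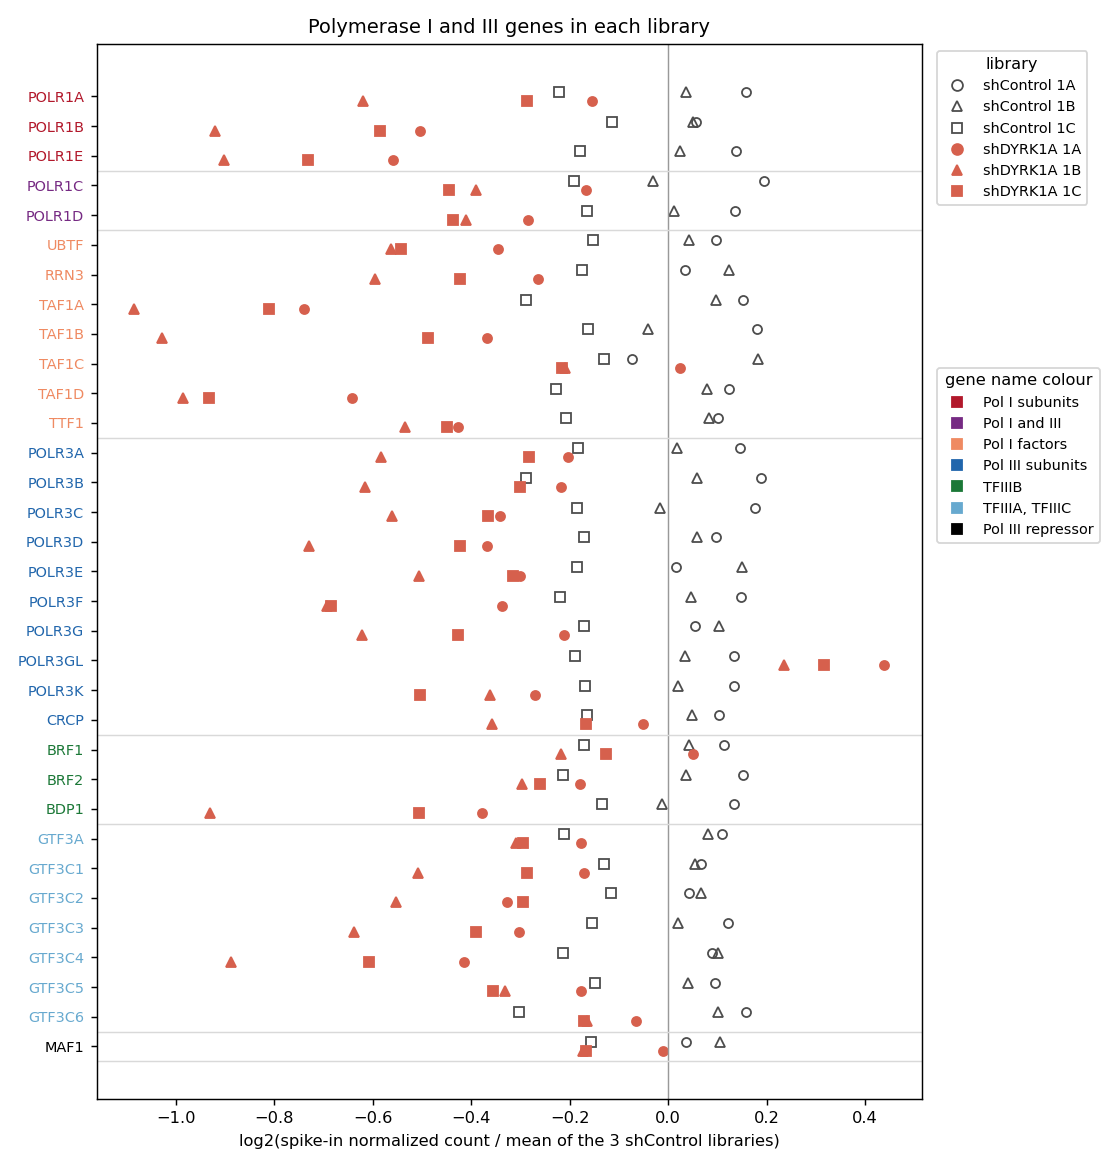
Spike-in normalized count of each gene in each library, as log2 of its ratio to the shControl mean, with open symbols for shControl and filled symbols for shDYRK1A. The filled symbols lie left of the open ones for most genes, and POLR3GL lies to the right. shControl 1C is the lowest control for all 33 genes, as it is for the total human count per size factor.

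Among the controls, shControl 1C was the lowest library for all 33 genes. In the knockdown group shDYRK1A 1B was the lowest for 27 and shDYRK1A 1C for 6. The count of 23 lower genes was 9 without shControl 1A, 12 without shControl 1B, 14 without shDYRK1A 1B and 13 without shDYRK1A 1C. It was 26 without shControl 1C and 24 without shDYRK1A 1A. The count over all 9697 genes moved in the same way, from 6145 to 4049, 4247, 4665 and 4261 in the first 4 of these fits and to 7552 and 6647 in the other 2. Of the 23 genes, 9 passed in all 6 of these fits, namely POLR1B, POLR1E, UBTF, TAF1B, TAF1D, POLR3D, POLR3F, BDP1 and GTF3C4. With TMM, the 4 lower genes passed in all 6 fits, as did 6 of the 8 higher ones, all but BRF2 and GTF3A. How many of all genes kept their calls in all 6 fits was not counted.

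The subunits particular to polymerase I were lower with spike-in scaling, 3 of 3, beside 63.4% of all genes. POLR1A, the largest catalytic subunit (chr2:86020216-86106155, GRCh38, as are all positions here), had spike-in normalized counts of 4767, 4380.2 and 3666 in the controls and 3838, 2780.4 and 3504 in the knockdown. The groups overlapped, since shDYRK1A 1A exceeded shControl 1C. Its log2 fold change was -0.34 ± 0.14 (SE; edgeR adjusted p = 0.0249) with the spike-in and 0.061 ± 0.059 (adjusted p = 0.399) with TMM, and the first call was kept in 2 of the 6 fits that left out a library.

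POLR1B, the second-largest subunit (chr2:112541915-112577150), gave 1816, 1810.0 and 1614 in the controls and 1232, 923 and 1165 in the knockdown. Here the highest shDYRK1A library stayed below the lowest control. POLR1B fell by 0.66 ± 0.15 on the log2 scale with the spike-in (adjusted p = 5.94e-05) and by 0.26 ± 0.062 with TMM (adjusted p = 0.00399).

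POLR1E, a subunit of the initiation and elongation heterodimer of polymerase I (chr9:37485935-37503697), gave 3308, 3057 and 2659 against 2043, 1610.2 and 1812. All 3 knockdown libraries were below the controls, with a mean at 60.6% of the control mean. The log2 fold change was -0.72 ± 0.14 with the spike-in (adjusted p = 3.77e-06) and -0.32 ± 0.05 with TMM (adjusted p = 2.25e-04), and 12.5% of all genes tested had a lower TMM value. Both POLR1B and POLR1E kept their calls on both scales whichever library was left out.

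Further subunits particular to polymerase I were listed for comparison. TWISTNB, the polymerase I stalk subunit now named POLR1F, gave 2899, 2977 and 2387 in the controls and 1338, 1078 and 1234 in the knockdown. No overlap was seen, and TWISTNB fell by 1.18 ± 0.15 (adjusted p = 5.80e-14) with the spike-in and by 0.77 ± 0.049 with TMM (adjusted p = 3.02e-07). Only 1.33% of the genes tested had a lower TMM value. CD3EAP, the partner of POLR1E in the heterodimer, also fell, with -0.74 (adjusted p = 3.43e-05) and -0.33 (adjusted p = 0.0057) on the respective scales. ZNRD1, a small polymerase I subunit, fell with the spike-in at -0.38 (adjusted p = 0.0271), and its TMM value was 0.027 (adjusted p = 0.762).

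POLR1C and POLR1D form a heterodimer in the core of both polymerases. They were lower with the spike-in, 2 of 2, beside 63.4% of all genes. POLR1C gave 1475, 1261 and 1129 in the controls and 1147, 983 and 947 in the knockdown, with shDYRK1A 1A above shControl 1C. Its log2 fold change was -0.33 ± 0.15 (adjusted p = 0.0482) with the spike-in and 0.077 ± 0.072 (adjusted p = 0.387) with TMM. The spike-in call was lost with either wider filter on low counts, with the replicate letters as a block (adjusted p = 0.0704) and when any of shControl 1A, shControl 1B, shDYRK1A 1B or shDYRK1A 1C was left out. POLR1D gave 3847, 3529 and 3122 against 2873, 2633 and 2586, without overlap, at -0.38 ± 0.14 (adjusted p = 0.0145) with the spike-in and 0.032 ± 0.056 (adjusted p = 0.655) with TMM.

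The initiation and termination factors of polymerase I were lower with the spike-in for 5 of the 6 tested, beside 63.4% of all genes. UBTF, the HMG-box protein that coats active ribosomal DNA (chr17:44205033-44221626), gave 5585, 5373 and 4699 in the controls and 4107, 3534 and 3582 in the knockdown. All shDYRK1A values were below the controls. UBTF had a log2 fold change of -0.48 ± 0.14 (adjusted p = 0.00141) with the spike-in and -0.076 ± 0.045 (adjusted p = 0.173) with TMM.

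RRN3, the factor that makes polymerase I competent to initiate, gave 2483, 2642 and 2148 against 2019.9, 1605 and 1808. The groups were apart, and the values were -0.42 ± 0.14 (adjusted p = 0.00726) with the spike-in and -0.019 ± 0.049 (adjusted p = 0.766) with TMM. RRN3 has pseudogene copies on chromosome 16 that can take reads from it. RRN3P3 held 225 to 257 raw counts in the controls and 116 to 172 in the knockdown, RRN3P1 held 63 to 70 in all libraries and RRN3P2 held 1 to 17. TTF1, which stops polymerase I at the end of the repeat, was lower with the spike-in at -0.47 (adjusted p = 0.00558), with a TMM value of -0.059 (adjusted p = 0.447).

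The SL1 complex holds TBP and the 4 TAF1 proteins, and these 4 differed among themselves. TAF1D (chr11:93729948-93784391) gave 5184, 5022 and 4061 in the controls and 3049, 2401 and 2494 in the knockdown, which left 55.7% of the control mean. The groups were well apart, and TAF1D had the lowest fold change of the 32 genes: -0.84 ± 0.14 (adjusted p = 2.92e-08) with the spike-in and -0.44 ± 0.051 (adjusted p = 2.69e-05) with TMM. TAF1D also hosts 8 small RNA genes on its own strand, mostly snoRNAs, which cover 11.2% of its exonic bases. The counting set aside 3.42% to 3.59% of reads as ambiguous, and reads over these shared bases may be among them.

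TAF1B was lower with the spike-in at -0.60 (adjusted p = 8.33e-04), and its TMM value was -0.20 (adjusted p = 0.12). TAF1C did not pass with the spike-in, at -0.13 (adjusted p = 0.409), and rose relative to the other genes, at 0.27 (adjusted p = 0.00478). TAF1A was the 1 gene of the set under the filter, which asked for a mean above 10 CPM. It gave 545, 525 and 402 in the controls and 294, 232 and 280.1 in the knockdown, with no overlap. In the fit with edgeR's own filter, over 17530 genes, TAF1A fell by 0.87 ± 0.17 with the spike-in (adjusted p = 5.54e-06) and by 0.49 ± 0.092 with TMM (adjusted p = 4.07e-04).

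**Figure D2:**
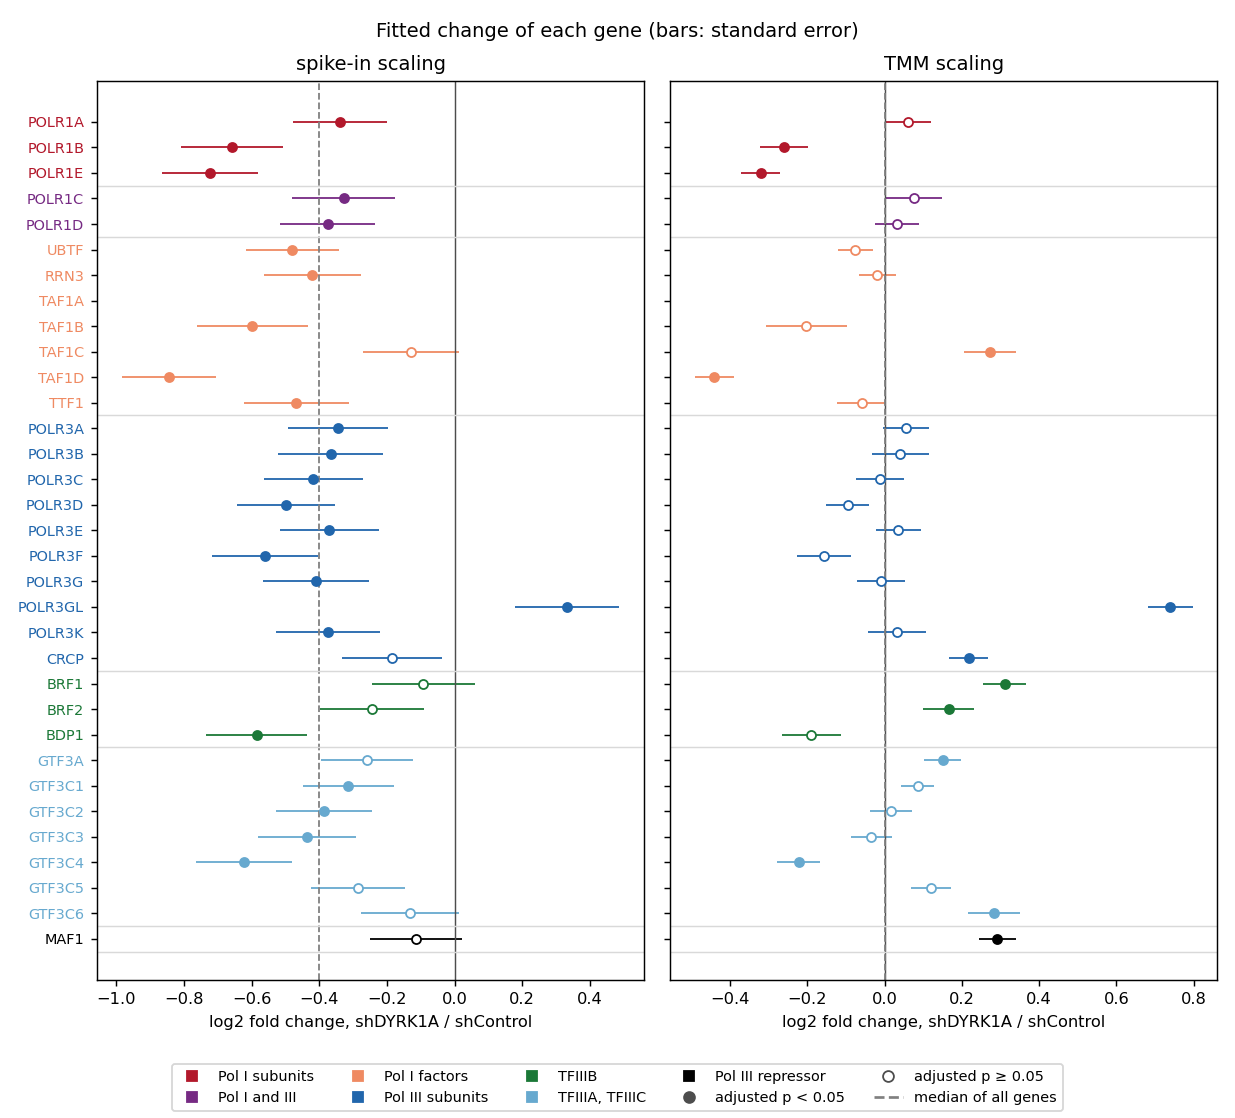
Fitted log2 fold change of the 32 tested genes with spike-in scaling on the left and TMM scaling on the right, with bars for the standard error, filled points for adjusted p under 0.05 and a dashed line at the median of all genes. POLR3GL lies to the right on both scales, and TAF1D, POLR1E, POLR1B and GTF3C4 are the filled points left of 0 under TMM.

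The promoters of these genes were searched on both strands for the palindrome TCTCGCGAGA, which the study associates with DYRK1A on chromatin, for its inner 6 letters TCGCGA, which lie within every copy of the palindrome, and for the E-box CACGTG. The windows ran from 250 bases before to 50 bases after a RefSeq start on GRCh38.p14, and 39 windows belonged to 27 of the 33 genes. The whole palindrome was in 0 of these 39 windows, beside 0.424% of all 35116 windows. The inner 6 letters were in 5 of the 39, beside 3.12% of all, and belonged to POLR1B, POLR1C, TAF1B and TAF1D. The E-box was in 6 of the 39, beside 7.26% of all, and belonged to POLR3A, POLR3C, POLR3E, GTF3C2, GTF3C4 and GTF3C6. The 3 genes with the inner letters within 100 bases before a start are shown 5′ to 3′ on the strand of the gene, 30 bases each. They include 2 of the 3 lowest of the 32 tested genes, and the other, POLR1E, had no window. They were chosen with these fold changes known, so they are no test of a link between the letters and the changes. Capitals mark the inner letters.
POLR1B, plus strand, chr2:112541958-112541987: caggggtgagccTCGCGAgttaggagttgg
POLR1C, plus strand, chr6:43516991-43517020: cggggaaaaatcTCGCGAtatttaagattc
TAF1D, minus strand, chr11:93741526-93741555: agctaagttgtaTCGCGAgatttcggcctg
The inner letters began 66, 86 and 48 bases before the start, and the stretches matched 8, 9 and 9 of the 10 letters of the palindrome. The inner letters by which they were picked already give 6. A match of 8 or more letters was in 5 of the 39 windows, beside 7.98% of all windows. A match of 9 or more was in 2 of the 39, beside 1.28%. The TMM log2 fold changes of the 4 genes with these letters were -0.26 for POLR1B, 0.077 for POLR1C, -0.20 for TAF1B and -0.44 for TAF1D, and those of POLR1B and TAF1D passed the test. A match of letters is not a measurement of binding.

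The 10 subunits of polymerase III in the set included 8 that were lower with the spike-in, 1 that was higher and 1 that did not pass. Of all genes, 63.4% were lower and 1.08% were higher. POLR3A, the largest subunit (chr10:77969251-78029545), gave 1923, 1761 and 1532 in the controls and 1511, 1161 and 1431 in the knockdown. The highest knockdown library, shDYRK1A 1A, was just under shControl 1C. The log2 fold change was -0.35 ± 0.15 (adjusted p = 0.0324) with the spike-in and 0.056 ± 0.06 (adjusted p = 0.446) with TMM.

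POLR3B, the second-largest subunit, gave 1018, 929 and 731 against 768, 583 and 725. Its groups overlapped at shControl 1C and shDYRK1A 1A. The values were -0.37 ± 0.16 (adjusted p = 0.0311) and 0.041 ± 0.074 (adjusted p = 0.666) on the respective scales. The spike-in calls of POLR3A and of POLR3B were each kept in 2 of the 6 fits that left out a library.

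POLR3C and POLR3F, which form a subcomplex with POLR3G or POLR3GL that opens the promoter, were lower with the spike-in at -0.42 (adjusted p = 0.00916) and -0.56 (adjusted p = 0.00102). POLR3D and POLR3E, a heterodimer of the initiating enzyme, were lower at -0.50 (adjusted p = 0.00164) and -0.37 (adjusted p = 0.0207), and POLR3K, the subunit for cleavage of the transcript, at -0.37 (adjusted p = 0.0264). With TMM these 5 ran from -0.16 for POLR3F to 0.036 for POLR3E. None of the 5 passed with the filter used here, by edgeR or by DESeq2, and 1 of them, POLR3F, had an unadjusted edgeR p under 0.05. With edgeR's own filter POLR3F passed, at -0.19 (adjusted p = 0.0415). CRCP, a stalk subunit, did not pass with the spike-in, at -0.19 (adjusted p = 0.251), and rose with TMM, at 0.22 (adjusted p = 0.003). The annotated gene AC068533.4 on the same strand shares 10.1% of the exonic bases of CRCP. Reads over these bases may be among those set aside as ambiguous.

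POLR3G and POLR3GL are paralogs that replace each other in polymerase III, and they differed in direction with the spike-in. POLR3G (chr5:90471748-90514553) gave 878, 908 and 751 in the controls and 731, 549 and 629 in the knockdown. All knockdown values were below the controls, and the log2 fold change was -0.41 ± 0.16 (adjusted p = 0.017) with the spike-in and -0.0094 ± 0.062 (adjusted p = 0.909) with TMM.

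POLR3GL (chr1:145964702-145978848) gave 935, 873 and 747 in the controls and 1154, 1002 and 1060.1 in the knockdown. It was the only gene of the set with every shDYRK1A library above every control. POLR3GL rose by 0.33 ± 0.15 on the log2 scale with the spike-in (adjusted p = 0.0468) and by 0.74 ± 0.058 with TMM (adjusted p = 1.49e-06), where 1.06% of the genes tested had a higher value. The spike-in call was kept only without shDYRK1A 1B, with values of 0.25 to 0.41 over the 6 fits and an adjusted p of up to 0.138, and it was also lost with either wider filter and with the replicate block. The TMM call was kept in all 6, at 0.72 to 0.76. The annotated gene AC243547.3 on the same strand shares 21.2% of the exonic bases of POLR3GL and held 0 counts in all 6 libraries. Reads over the shared bases may be among those set aside as ambiguous, so these counts do not measure that gene.

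The ratio of POLR3G to POLR3GL counts within a library does not depend on scaling. As log2 it was -0.091, 0.057 and 0.0075 in the controls and -0.66, -0.87 and -0.75 in the knockdown. The groups did not overlap, and the geometric mean of the ratio was 0.994 in shControl and 0.591 in shDYRK1A, a log2 difference of -0.75 with a 95% interval of -0.96 to -0.54. In a two-sided exact permutation test p was 0.1, the smallest that 3 against 3 libraries allow, and 0.133 adjusted over the 4 ratios tested.

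**Figure D3:**
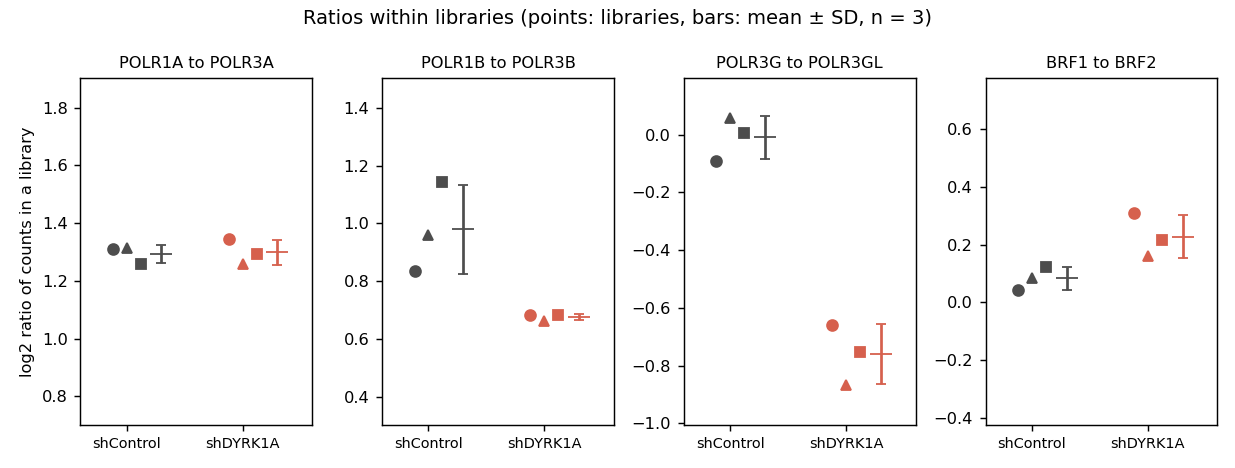
Log2 ratio of raw counts of 2 genes within each library, with 1 point per library, bars for the mean ± SD (n = 3) and the same height of axis in each panel. The POLR3G to POLR3GL ratio has a mean of -0.00886 in shControl and -0.76 in shDYRK1A, and the POLR1A to POLR3A ratio overlaps between the groups.

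TFIIIB places polymerase III on the gene, and 1 of its 3 genes was lower with the spike-in, beside 63.4% of all genes. BDP1, its scaffold subunit (chr5:71455615-71567820), gave 1906, 1723 and 1583 in the controls and 1337, 912 and 1223 in the knockdown. The knockdown libraries were all below the controls, with shDYRK1A 1B the farthest. BDP1 fell by 0.59 ± 0.15 with the spike-in (adjusted p = 3.42e-04), and its TMM value was -0.19 ± 0.077 (adjusted p = 0.0537). Its TMM value passed by DESeq2 (adjusted p = 0.0413), with both wider filters (0.0259 and 0.0216) and with the replicate block (0.0115).

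BRF1, the TFIIIB subunit used at transfer RNA and 5S genes, gave 1083, 1030.4 and 889 against 1037, 861 and 918. These overlapped, and BRF1 did not pass with the spike-in, at -0.092 ± 0.15 (adjusted p = 0.591), but rose relative to the other genes, at 0.31 ± 0.055 (adjusted p = 6.11e-04). BRF2, the counterpart of BRF1 at upstream-type promoters such as that of U6, gave 1053, 971 and 817 against 837, 771 and 791. These too overlapped, with -0.24 ± 0.15 (adjusted p = 0.15) on the spike-in scale and 0.17 ± 0.065 (adjusted p = 0.0483) with TMM. The TMM call of BRF2 was kept in 2 of the 6 fits that left out a library and lost without shControl 1B, shControl 1C, shDYRK1A 1B or shDYRK1A 1C. It was also lost with both wider filters (adjusted p = 0.129 and 0.159), by DESeq2 (0.0697) and with the replicate block (0.0552). The log2 ratio of BRF1 to BRF2 was 0.041, 0.085 and 0.12 in the controls and 0.31, 0.16 and 0.21 in the knockdown, a difference of 0.15 (95% interval 0.0068 to 0.28, exact permutation p = 0.1, adjusted 0.133). The interval pools SDs of 0.0404 in shControl and 0.0762 in shDYRK1A. It takes the spread of the groups as equal, so it may be too narrow and does not settle that the ratio differed.

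TFIIIA and TFIIIC bind the promoters inside the genes, and 4 of their 7 genes were lower with the spike-in, beside 63.4% of all genes. GTF3A, which is TFIIIA and binds 5S genes, gave 7279, 7141 and 5833 in the controls and 5969.9, 5449 and 5505 in the knockdown. shDYRK1A 1A lay above shControl 1C, and the values were -0.26 ± 0.14 (adjusted p = 0.0791) with the spike-in and 0.15 ± 0.048 (adjusted p = 0.0184) with TMM. The TMM call of GTF3A was lost without shControl 1C and with both wider filters (adjusted p = 0.0647 and 0.0804), and DESeq2 called the spike-in value (adjusted p = 0.042).

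The 6 subunits of TFIIIC ran from -0.62 for GTF3C4 to -0.13 for GTF3C6 with the spike-in. GTF3C4, which has acetyltransferase activity, fell on both scales, with -0.62 (adjusted p = 6.24e-05) and -0.22 (adjusted p = 0.00533). GTF3C1, GTF3C2 and GTF3C3 were lower with the spike-in, at -0.31 (adjusted p = 0.032), -0.39 (adjusted p = 0.0122) and -0.44 (adjusted p = 0.00568). GTF3C5 passed on neither scale by edgeR, at -0.29 (adjusted p = 0.0612) and 0.12 (adjusted p = 0.0657), while DESeq2 called its spike-in value (adjusted p = 0.0214). GTF3C6 rose with TMM, at 0.28 (adjusted p = 0.00394), and was at -0.13 (adjusted p = 0.414) with the spike-in.

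MAF1, the repressor that binds polymerase III when nutrients are short, gave 5691, 5971 and 4979 in the controls and 5506, 4924 and 4943 in the knockdown. The groups overlapped on this scale, with the highest knockdown library between the controls. MAF1 was at -0.11 ± 0.14 (adjusted p = 0.45) with the spike-in and rose relative to the other genes, at 0.29 ± 0.048 (adjusted p = 3.36e-04). The TMM call was kept in all 6 fits that left out a library.

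The design also allows polymerase I to be set against polymerase III. With the spike-in, 8 of 9 tested polymerase I genes were lower, with a median log2 fold change of -0.48, and 13 of 20 polymerase III genes were lower and 1 higher, with a median of -0.37. On the TMM scale 3 polymerase I genes were lower and 1 higher, with a median of -0.076, against 1 lower and 6 higher, with a median of 0.038, for polymerase III. The medians differed by -0.11 on the spike-in scale. The background shares are those given above, and no test of the difference between these lists was made.

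Within a library, the mean log2 count of the polymerase I genes exceeded that of the polymerase III genes by 0.36, 0.40 and 0.40 in the controls. In the knockdown libraries the excess was 0.22, 0.16 and 0.19. The mean was 0.384 ± 0.0204 in shControl and 0.190 ± 0.0327 in shDYRK1A (SD, n = 3 each), a difference of -0.19. The 2 groups did not overlap. The S-phase genes also differed between the groups. All 12 of 12 listed replication genes fell on both scales, beside 63.4% and 28.6% of all genes, with medians of -0.81 and -0.41. With the spike-in they ran from -1.20 for RRM2, a ribonucleotide reductase subunit, to -0.53 for MCM7, a helicase subunit. Their part in the polymerase values was not tested.

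**Figure D4:**
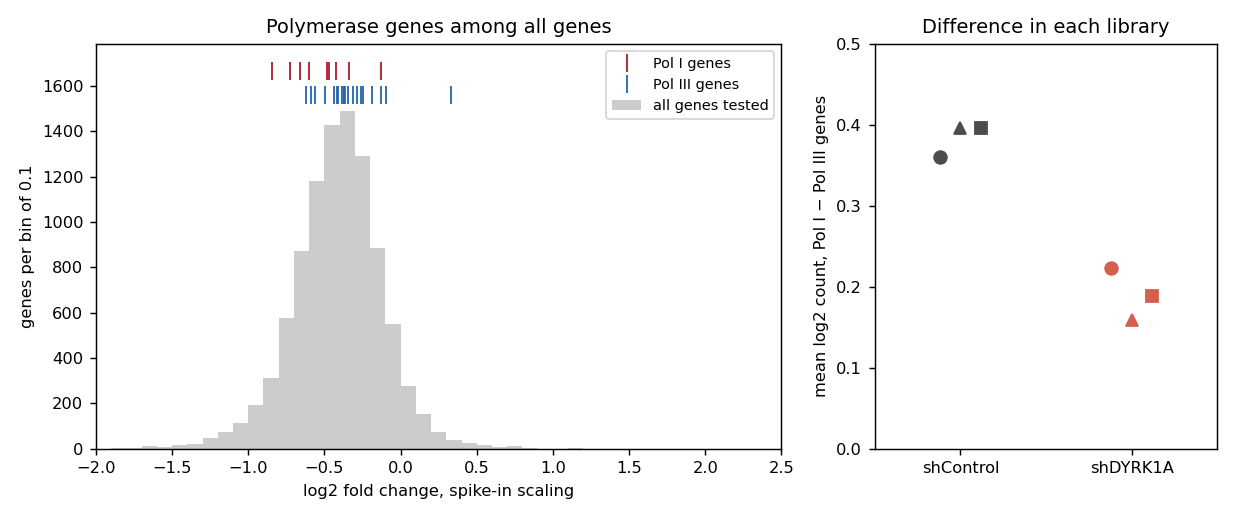
Left, number of genes per bin of 0.1 in log2 fold change with spike-in scaling for the 9697 genes tested, with ticks for the 9 polymerase I and 20 polymerase III genes. Right, mean log2 count of the polymerase I genes minus that of the polymerase III genes in each library, which is 0.36 to 0.40 in shControl and 0.16 to 0.22 in shDYRK1A.

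Ratios within a library set the matching subunits of the 2 enzymes side by side. The log2 ratio of POLR1A to POLR3A was 1.31, 1.31 and 1.26 in the controls and 1.34, 1.26 and 1.29 in the knockdown. The groups overlapped, with a difference of 0.0048 (95% interval -0.08 to 0.089, exact permutation p = 0.9, adjusted 0.9). The log2 ratio of POLR1B to POLR3B was 0.84, 0.96 and 1.14 against 0.68, 0.66 and 0.68. These groups did not overlap, with a difference of -0.30 (95% interval -0.55 to -0.055, exact permutation p = 0.1, adjusted 0.133). The interval pools SDs of 0.154 in shControl and 0.0117 in shDYRK1A. Since these SDs differ, the interval may be too narrow and does not settle that the ratio differed.

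Levels between genes were compared as spike-in normalized counts per kilobase of annotated exon in shControl. MAF1 was the highest of the 33 at 2334 ± 215, then GTF3A at 2249.6 ± 266 and GTF3C6 at 1766 ± 292 (SD, n = 3). MAF1 and GTF3A lay within each other's spread, as did GTF3A and GTF3C6 when both SDs are taken. POLR1E at 1197 ± 130.2 was the highest of the polymerase I genes, ahead of UBTF at 746 ± 66.2 and RRN3 at 583 ± 60.7, and stood apart from both. The largest subunits were lower, with POLR1A at 316 ± 41.3 and POLR3A at 195 ± 22.0.

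The paralogs were at different levels per kilobase. POLR3GL was at 473 ± 53.3 in shControl and 596 ± 42.5 in shDYRK1A, and POLR3G at 210.4 ± 20.8 and 158 ± 22.6. Their normalized counts in shControl were alike, at 851 ± 95.9 and 845 ± 83.4. The gap per kilobase in shControl thus comes from the exon lengths, 1799 and 4019 bases, which cover every annotated transcript. BRF2 was at 343 ± 43.5 and BRF1 at 76.0 ± 7.64 in shControl, the latter the lowest of the 33. The exon length of BRF1 covers every annotated transcript, 13167 bases, so its level per kilobase is a low estimate.

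**Figure D5:**
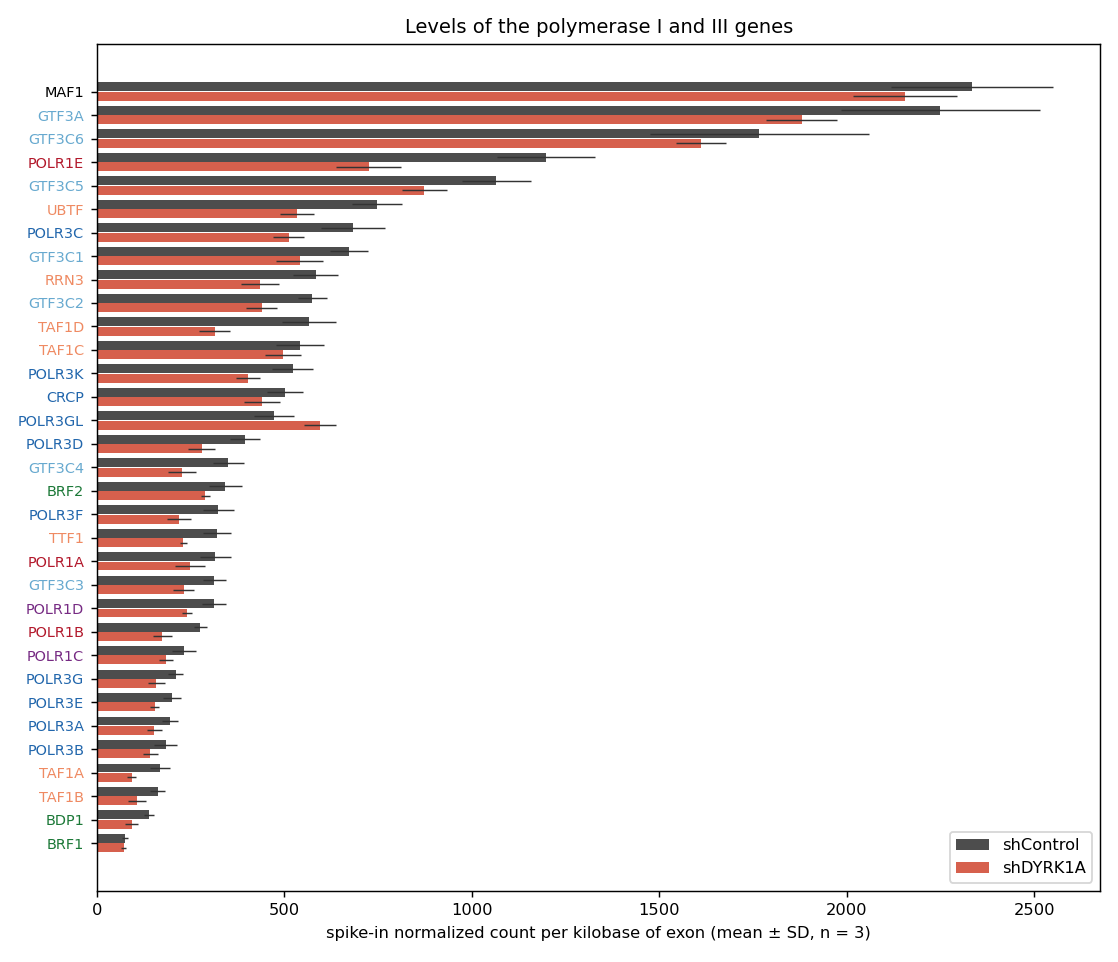
Spike-in normalized count per kilobase of exon for all 33 genes, in order of the shControl mean, with bars for the mean of 3 libraries and lines for the SD. MAF1, GTF3A and GTF3C6 are the highest, BRF1 is the lowest, and POLR3GL is the gene whose shDYRK1A bar is longer.

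The genes around these machines were described from lists of known components. Of the subunits common to all polymerases, 2 of the 4 tested were lower with the spike-in, beside 63.4% of all genes (median -0.22), from -0.36 for POLR2H to -0.015 for POLR2L. Of the factors for upstream-type polymerase III promoters, 5 of 7 were lower, beside the same share (median -0.41), from -0.75 for ZNF143, an activator of snRNA-type promoters, to -0.27 for SNAPC5, a subunit of the complex that binds them. TBP, shared by SL1 and TFIIIB, was among the 5, at -0.41 (adjusted p = 0.0207) and -0.000491 with TMM.

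Of the regulators of ribosomal DNA and nucleolar proteins, 9 of 12 were lower with the spike-in, beside 63.4% of all genes (median -0.62), and 7 were lower and 1 higher with TMM, beside 28.6% and 27.3% (median -0.21). They ran from -0.73 for NPM1, the nucleolar protein nucleophosmin, to -0.084 for SIRT7, a deacetylase that promotes polymerase I transcription. Of the proteins that process or carry polymerase III products, 12 of 14 were lower, beside the same 63.4% (median -0.52), and 6 were lower and 2 higher with TMM, beside the same 28.6% and 27.3%. XPOT, the export receptor for transfer RNA, gave 7594, 7114 and 6026 in the controls and 2616, 1912 and 2569 in the knockdown. This was the lowest value of any list, -1.55 ± 0.14 (adjusted p = 1.64e-25) with the spike-in, and 0.258% of the genes tested had a lower TMM value. MEPCE, the capping enzyme of 7SK RNA, was the highest of that list, at 0.074 (adjusted p = 0.646) with the spike-in, and rose relative to the other genes, at 0.48 (adjusted p = 2.42e-05) with TMM.

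The products themselves were barely counted in these poly(A)-selected libraries. RMRP, RPPH1, RN7SK and RN7SL1 were listed at 0 in all 6 libraries, and the vault and U6 genes looked at held 0 to 19 raw counts. RN7SL2 held 706 to 1272 raw counts in the controls and 781 to 1440 in the knockdown, with overlapping groups, and BCYRN1 held 36 to 55 and 47 to 73. These counts do not measure the output of either polymerase.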

How the data were processed

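Raw counts per gene were deposited by the authors for each library, as whole numbers. The submitters' processing notes name STAR, DESeq2, hg38 and dm3, without versions. A second deposited table holds these counts as signal, divided by 1 spike-in size factor per library (0.821 to 1.21), over 23026 human genes. The other table holds the authors' own fold changes and p-values from DESeq2 and was not used. The share of unmapped reads was 8.44% to 10.7% in shControl and 10.8% to 15.6% in shDYRK1A. It was highest in shDYRK1A 1B, which also had the fewest human counts. The part of this difference in the values was not tested. The 4 rows that name no gene were left out. The library kit marks strand, and the setting used for counting is not given in the sources used here.

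The raw counts with these size factors were fitted with edgeR 4.0.16 (robust quasi-likelihood test, Benjamini-Hochberg adjustment over the 9697 genes with a mean above 10 CPM, threshold 0.05), and again with TMM factors. The script was tested on simulated data. Log2 ratios within libraries used counts + 0.5, a two-sided exact permutation test and a 95% interval from the pooled SD. Exon lengths and positions came from GENCODE release 29, whose coordinates equal those of the deposited table for 95.8% of genes. Promoter windows came from RefSeq (GRCh38.p14). Alternatives were DESeq2 1.42.0, median-of-ratios scaling, 2 wider filters, a replicate block and leaving out each library.

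All 33 genes were accounted for. Values per library were given for the catalytic and recruiting genes fixed by name, for those past the fold threshold, and for the 3 lowest and 3 highest, and every other list was represented by its 2 extreme genes. 1 of these genes is not reported here. CD3EAP, ZNRD1 and TBP were named after their values were seen. The members and lists were chosen with earlier results of these data known.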

Additional observations from a re-analysis of the deposited data

How the results depend on the processing

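The scaling decided the counts of calls. The 23 genes lower with the spike-in were 4 with TMM and 4 with median-of-ratios scaling, the 1 higher gene was 8 and 8, and the 2 past the fold threshold were 0 and 0. Among all 9697 genes, 6145 were lower and 105 higher with the spike-in, 2769 and 2652 with TMM, and 2719 and 2709 with median-of-ratios scaling. Of these genes, 1386 were lower past the fold threshold with the spike-in and 187 with TMM. Of the genes called lower with the spike-in, POLR1A, POLR1C, POLR1D, POLR3A, POLR3B, POLR3E, POLR3K, GTF3C1 and GTF3C2 changed sign, to TMM values of 0.061, 0.077, 0.032, 0.056, 0.041, 0.036, 0.032, 0.085 and 0.017 and median-of-ratios values of 0.065, 0.0798, 0.035, 0.059, 0.044, 0.039, 0.035, 0.088 and 0.0198. The 1 higher gene, POLR3GL, was 0 with edgeR's own filter and 0 with a minimum of 1 count, where its adjusted p lay just over the threshold. Among all genes, 346 of 17530 and 370 of 23026 were higher in these fits, in that order. The 4 genes lower and 8 higher with TMM were 7 and 6 with edgeR's own filter, 6 and 6 with a minimum of 1 count, and 5 and 7 by DESeq2. The counts of all genes lower and higher were 3680 and 3323 of 17530 with edgeR's own filter. They were 3605 and 3308 of 23026 with a minimum of 1 count, and 2696 and 2623 of 9697 by DESeq2.

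Leaving out 1 library gave 9 to 26 genes lower and 0 to 1 higher with the spike-in, 1 to 6 past the fold threshold, and 4 to 6 lower and 6 to 9 higher with TMM. Among all 9697 genes, 4049 to 7552 were lower and 69 to 114 higher with the spike-in in these fits. With TMM, 2301 to 2929 were lower and 2122 to 2806 higher. All genes past the fold threshold were not counted in these fits. The fold count was 1 with shControl 1A or shDYRK1A 1B left out, 4 with shControl 1C left out and 6 with shDYRK1A 1A left out. The difference of -0.11 between the polymerase medians was -0.17 with edgeR's own filter, which adds TAF1A, and -0.19 with means, and -0.15 to -0.089 without 1 library. The POLR1A to POLR3A difference ran from -0.018 to 0.024, negative without shControl 1C or shDYRK1A 1A. The other 3 ratios kept their sign.

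The labels do not say that the letters 1A, 1B and 1C pair the libraries, and they were not taken to. Same-letter correlations of deviations were 0.15, 0.073 and 0.13, and each library correlated best with its own letter. With the replicate block, 22 genes were lower and 0 higher with the spike-in, POLR1C and POLR3GL losing their calls, 2 passed the fold threshold, and 6 were lower and 7 higher with TMM. Among all 9697 genes, this fit had 5911 lower and 98 higher with the spike-in, and 2847 and 2764 with TMM. Depth was high for these genes, and the spread between 3 libraries sets the precision.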

Other observations

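The following genes of the processing and nucleolar lists were named after their values were seen. Among the protein subunits of RNase P and RNase MRP, which trim transfer RNA and ribosomal RNA precursors, RPP40 had a log2 fold change of -0.82 ± 0.16 with spike-in scaling (SE; edgeR adjusted p = 2.38e-06) and -0.42 ± 0.069 with TMM (adjusted p = 3.42e-04). RPP30 was at -0.70 (adjusted p = 1.95e-05) and POP1 at -0.69 (adjusted p = 9.97e-06) with the spike-in. POP5 gave 1363, 1386 and 1109 normalized counts in the controls and 1354, 1282 and 1198 in the knockdown, with overlapping groups, and was at -0.00833 with the spike-in (adjusted p = 0.962) and 0.40 ± 0.068 with TMM (adjusted p = 4.45e-04). The subunits of these enzymes lay on both sides of the median of all genes.

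TCOF1 and NOLC1, nucleolar proteins that work with polymerase I, fell by 0.70 (adjusted p = 2.14e-06) and 0.72 (adjusted p = 1.03e-06) with the spike-in, and by 0.30 (adjusted p = 8.11e-05) and 0.32 (adjusted p = 8.40e-05) with TMM.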
